A study of Rattus norvegicus with 6 samples.

Results

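The messages described here encode the folding and quality-control machinery of the endoplasmic reticulum (ER) and the sensors of the unfolded protein response. They are 33 genes chosen by symbol from the 19825 genes of the deposited count table, and all 33 passed the filter on low counts that left 12985 genes for testing. RNA was sequenced from 6 libraries of H9C2 cells, labelled as cardiomyocytes and known as a myoblast line established from the heart of a rat embryo. The 3 libraries named siPUM2 came from cells given small interfering RNA against PUM2, a Pumilio RNA-binding protein, and the 3 named NC from control cells that the labels describe as given empty vector. The controls therefore differ from the knockdown also in the kind of nucleic acid given, as far as the labels say. No label ties the libraries of a group to separate cultures, so p-values here reflect the spread among these samples alone, part or all of which may be technical.

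Library totals ran from 27704702 counts (siPUM2 2) to 30579237 (NC 3). Levels are given as CPM, in which counts are divided by library size after edgeR's TMM scaling, or as deposited FPKM, which are also divided by gene length. The targeted gene Pum2 fell by 44.9%, with NC 1, 2 and 3 at 223, 228 and 225 CPM and siPUM2 1, 2 and 3 at 127, 125 and 120 CPM. Of 6 matched markers of skeletal myoblasts, Myod1 was at 83.3, 82.2 and 78.3 CPM and Cdh15 at 212, 213 and 219 CPM in NC 1, 2 and 3. Of 7 matched cardiomyocyte markers, Myh6, Myl7, Ryr2, Tnni3 and Actc1 were each under 1 CPM in every library, so most defining genes of mature cardiomyocytes were at or near 0, while Tnnt2 and Nkx2-5 were present. The 3 matched macrophage markers summed to 0.787 to 1.82 CPM in NC and 0.972 to 1.41 CPM in siPUM2, and the 5 endothelial markers to 2.25 to 2.38 and 2.16 to 2.64 CPM. Neither list stood higher in all libraries of a group than in all of the other. The myoblast list split: Myog, a regulator of muscle differentiation, fell from 20.1 ± 4.23 to 9.23 ± 0.445 CPM (SD, n = 3; log2 fold change -1.12, adjusted p = 1.86e-09, edgeR) and the embryonic myosin Myh3 fell from a low level (log2 fold change -0.93), whereas Cdh15 (0.20) and Des (0.17) rose and Myod1 was not called (0.05). Chrna1 was under 1 CPM and not tested. The sum of this list, at 344 to 348 CPM in NC and 359 to 384 CPM in siPUM2, is mostly Cdh15. The summed cardiomyocyte markers, nearly all of it Tnnt2, were at 294 to 352 and 455 to 511 CPM, and the 3 epithelial markers, nearly all of it Krt8 with Cdh1 at or near 0, at 39.4 to 47.0 and 35.1 to 36.9 CPM. The sum of the 6 fibroblast markers overlapped (16900 to 16980 and 16520 to 16960 CPM), but Thy1 rose (log2 fold change 0.31) and Col1a1 fell (-0.08), while Col1a2 was not called (0.02) and Pdgfra, Dcn and Lum were at or near 0. The part of these differences in the results below was not tested.

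Secretory and membrane proteins enter the ER through the Sec61 channel, fold with the help of the HSP70 chaperone BiP (Hspa5) and the HSP90 chaperone GRP94 (Hsp90b1), acquire disulfide bonds from protein disulfide isomerases, and pass through a cycle of lectin chaperones that bind their sugars. Proteins that fail to fold are returned to the cytosol and degraded, a route known as ER-associated degradation (ERAD). When unfolded proteins build up, the sensors IRE1 (Ern1), PERK (Eif2ak3) and ATF6 start the unfolded protein response, in which spliced XBP1 and cleaved ATF6 switch on chaperone and degradation genes. In fibroblasts and myofibroblasts the same machinery carries the heavy traffic of collagen.

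Many of these genes share a promoter element through which ATF6 and XBP1 are known to act, so promoter sequences are shown first. RefSeq promoter windows of build GRCr8, from 250 bases before to 50 after the start of a gene, were matched by symbol for 25 of the 33 genes. Ern1, Atf6, Manf, Pdia3, Pdia6, Ero1a, Derl1 and Sec61a1 had no entry. The ER stress response element (ERSE) was searched as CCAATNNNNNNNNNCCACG on both strands. It was present in the windows of 9 of the 25 genes (36.0%) and of 21 of all 27457 genes with a window (0.0765%). Known genes of the unfolded protein response were picked for the 33, so this contrast and those below describe that choice and are no test. Each match is written below from 5′ to 3′ on the strand that carries it, with the fixed bases in capitals and the spacer in lower case. Positions are those of the first base of the match on the gene's strand.

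Calr, 232 bases before the start: CCAATcagggtcgaCCACG
Canx, 230 bases before the start: CCAATcatcacgctCCACG
Creld2, 145 bases before the start: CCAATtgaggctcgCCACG
Derl3, 154 bases before the start: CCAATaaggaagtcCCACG
Dnajc3, 133 bases before the start: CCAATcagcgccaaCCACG
Ero1b, 224 bases before the start: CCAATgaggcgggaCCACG
Hsp90b1, 72 bases before the start: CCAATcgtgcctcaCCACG
Hsp90b1, 176 bases before the start: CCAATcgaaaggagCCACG
Hspa5, 43 bases before the start: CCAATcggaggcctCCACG
Xbp1, 65 bases before the start: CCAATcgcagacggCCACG

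The fixed parts are the same by construction, and the spacers differ from gene to gene. Hsp90b1 holds the element at a pair of places. A shorter form, ERSE-II, was searched as ATTGGNCCACG on both strands. It was present in 3 of the 25 genes (12%) and in 17 of all 27457 genes (0.0619%). Its matches, with the variable base in lower case, were as follows.

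Dnajb11, 10 bases before the start: ATTGGcCCACG
Herpud1, 124 bases before the start: ATTGGgCCACG
Hyou1, 188 bases before the start: ATTGGcCCACG
Hyou1, 88 bases before the start: ATTGGgCCACG

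ERSE and ERSE-II overlapped in no gene here, so 12 of the 25 genes held an element of either kind. The core of the XBP1 site UPRE was searched as TGACGTGG on both strands. Among the 25 genes it was present in Hyou1 only (4.0%, against 187 of all 27457 genes or 0.681%). That match overlapped an ERSE-II match in the same window. To show the elements in place, the 250 bases before the start are printed in full for BiP, a classic target of the response, for Herpud1, the ERAD gene whose message fell, and for Pdia4, the abundant isomerase that fell furthest and holds neither element. Matches to ERSE or ERSE-II are in capitals, and the last base lies next to the start.

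Hspa5, chr3:38452766-38453015, plus strand: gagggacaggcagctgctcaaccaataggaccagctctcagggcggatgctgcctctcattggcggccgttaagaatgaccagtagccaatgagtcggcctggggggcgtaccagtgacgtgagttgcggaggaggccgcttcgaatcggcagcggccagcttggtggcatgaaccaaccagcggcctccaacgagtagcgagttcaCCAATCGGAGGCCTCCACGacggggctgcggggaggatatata
Herpud1, chr19:10614708-10614957, minus strand: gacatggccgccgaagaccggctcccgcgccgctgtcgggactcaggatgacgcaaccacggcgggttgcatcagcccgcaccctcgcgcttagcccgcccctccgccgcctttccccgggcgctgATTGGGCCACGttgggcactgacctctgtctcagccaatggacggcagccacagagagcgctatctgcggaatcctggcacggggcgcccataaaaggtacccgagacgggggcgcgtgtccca
Pdia4, chr4:78153192-78153441, minus strand: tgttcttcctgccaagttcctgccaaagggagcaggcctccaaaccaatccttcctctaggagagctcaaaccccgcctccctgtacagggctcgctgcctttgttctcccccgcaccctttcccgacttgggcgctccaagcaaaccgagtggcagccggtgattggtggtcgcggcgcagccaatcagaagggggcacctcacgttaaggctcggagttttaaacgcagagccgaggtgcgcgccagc

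A match is a description of these letters and not a measured binding site, and a window without a match says nothing about the factor.

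The 33 genes spanned more than 3 orders of magnitude in level per length. The highest in NC was Serpinh1, the collagen chaperone HSP47, at 1043 ± 8.75 FPKM (SD, n = 3), followed by calreticulin (Calr) at 949.8 ± 13.6 and P4hb, the founding protein disulfide isomerase and a subunit of collagen prolyl hydroxylase, at 561 ± 1.17 FPKM. Sec61b (427 ± 9.29 FPKM), Pdia3 (371 ± 5.12), Hsp90b1 (271 ± 6.63), Pdia6 (249 ± 4.76) and Hspa5 (191 ± 2.24) came next. Neighbours in this upper part of the order were further apart than their spread. The sensors lay near the bottom, with Atf6 at 7.44 ± 0.294, Eif2ak3 at 3.32 ± 0.104 and Ern1 at 1.87 ± 0.065 FPKM. The lowest were the oxidase gene Ero1b (1.07 ± 0.102 FPKM, 122 to 186 counts per library) and Derl3 (0.213 ± 0.049 FPKM, 37 to 57 counts). Together the 33 genes took 1.244% to 1.256% of the counts of each NC library and 1.180% to 1.198% of each siPUM2 library.

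**Figure D1:**
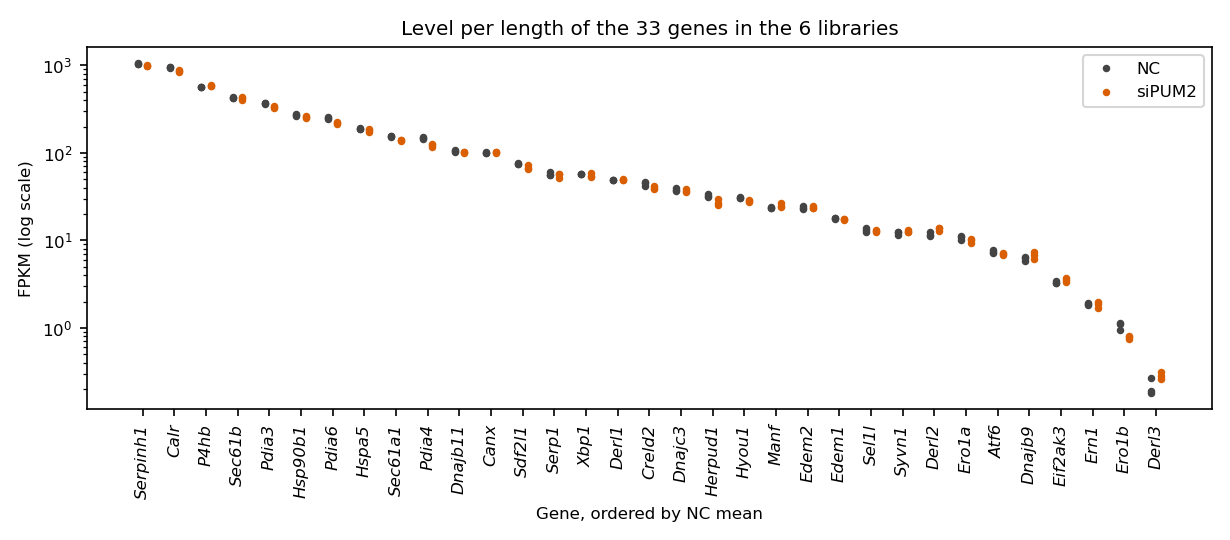
Level of each of the 33 genes in deposited FPKM (log axis), with genes ordered by their NC mean. Each point is a library (grey NC, orange siPUM2, n = 3 each). The order runs from Serpinh1 (NC mean 1043 FPKM) to Derl3 (0.213 FPKM), and the groups lie close together beside that range.

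The question for these messages is which of them changed when PUM2 was reduced. Of the 33 genes 12 fell (36.4%), 3 rose (9.09%) and 18 were not called at an adjusted p under 0.05 (edgeR's quasi-likelihood test, Benjamini-Hochberg over all genes tested). Over all 12985 genes, 13.3% were called lower, 15.1% higher and 28.4% either way. The share called lower was thus above that background and the share called higher below it. The 33 genes were chosen with earlier results of these data known. Their shares, here and by role below, are therefore a description and no independent evidence of an excess. That background was not matched to the 33 in level, and the part of level in these shares was not tested. The median log2 fold change of the 33 genes was -0.05, beside 0.001 over all genes tested, and 23 of the 33 had a negative sign (69.7%, against 49.7% of all genes). NC and siPUM2 values were fully apart for 15 of the 33 (45.5%, against 39.9% of all genes tested), 12 with siPUM2 below NC and 3 above. The changes were small. The median size among the 15 called genes was 0.14 on the log2 scale, against 0.20 among all called genes, and the largest changes of the 15 were those of Ero1b (-26.8%) and Pdia4 (-16.6%). Smaller changes can be called at high counts, and the part of level in this comparison of sizes was not tested.

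With NC 2, NC 3 or siPUM2 2 left out, 1 of the 33 genes was called higher in place of 3. Over all genes tested, 1603 of 13173, 1708 of 13155 and 1625 of 13179 were called higher in these fits, against 1961 of 12985. The number of the 33 called lower ranged from 8 without siPUM2 1 to 13 without siPUM2 3. Over all genes tested it was 1418 of 13186 and 1740 of 13183 in those fits, against 1731 of 12985. Cells with fewer of these messages each and a smaller share of cells expressing them cannot be told apart in bulk RNA.

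**Figure D2:**
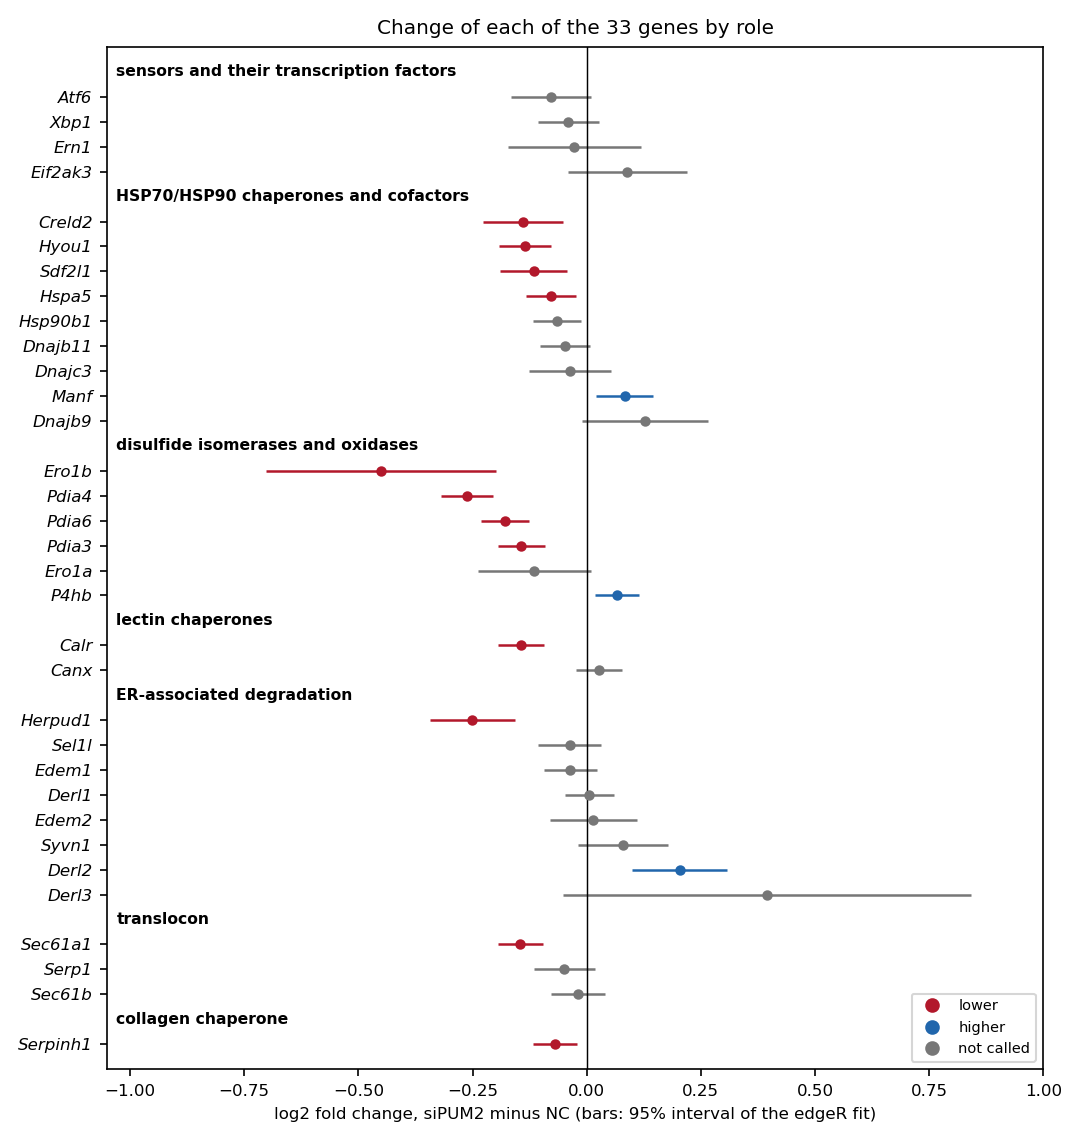
The log2 fold change of each of the 33 genes (siPUM2 minus NC) grouped by role, with the 95% interval of the edgeR fit before correction for multiple tests. Red marks the 12 genes called lower, blue the 3 called higher and grey the 18 not called. All red points but Ero1b (-0.45) sit between -0.07 and -0.26, while the sensors are all grey.

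The sensors of the unfolded protein response and the transcription factor XBP1 showed no called change. Of these 4 genes edgeR called 0 (against 28.4% of all genes), and 0 had an unadjusted p under 0.05, which was also so with DESeq2 and with limma voom. With only 4 genes, 0 called cannot be told apart from the share over all genes. The share of all genes at the unadjusted threshold was not counted. Ern1, the kinase and ribonuclease that splices Xbp1, was measured at 16.0 CPM for NC 1, 14.9 for NC 2 and 15.4 for NC 3, beside 16.1 for siPUM2 1, 15.5 for siPUM2 2 and 13.9 for siPUM2 3 (log2 fold change -0.03, 95% interval -0.17 to 0.12). Eif2ak3, the kinase that phosphorylates eIF2 alpha, had a log2 fold change of 0.09 (-0.04 to 0.22), and Atf6 one of -0.08 (-0.16 to 0.01). The total Xbp1 message, itself a target of the response with an ERSE in its promoter window, was measured at 119, 118 and 118 CPM across NC 1, 2 and 3, against 113, 122 and 109 CPM across siPUM2 1, 2 and 3. Its siPUM2 libraries lay on both sides of the NC libraries (log2 fold change -0.04, 95% interval -0.11 to 0.03). The tables count whole genes, so spliced and unspliced Xbp1 were not separated.

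Among the HSP70 and HSP90 chaperones and their cofactors, 4 of 9 fell (44.4%, against 13.3% of all genes). In this role 1 rose (11.1%, against 15.1%) and 4 were not called. BiP (Hspa5), which holds the sensors inactive and binds unfolded chains, was measured at 549.7 CPM for NC 1, 547 for NC 2 and 558 for NC 3, beside 501 for siPUM2 1, 523 for siPUM2 2 and 543 for siPUM2 3. All siPUM2 values were below all NC values, but siPUM2 3 lay close to NC. With all 6 libraries it fell by 5.26% (log2 fold change -0.08 ± 0.0271 (SE), adjusted p = 0.0305, edgeR). Without any one of NC 1, NC 2, NC 3, siPUM2 1 or siPUM2 2 it was not called (adjusted p = 0.0560, 0.0520, 0.0867, 0.246 and 0.0790), and without siPUM2 1 the log2 fold change was -0.05. Hyou1, an HSP70-like nucleotide exchange factor for BiP, was measured at 163, 162 and 161 CPM across NC 1, 2 and 3, against 143, 147 and 152 CPM across siPUM2 1, 2 and 3. The groups were clearly apart, and it fell by 8.97% (log2 fold change -0.14 ± 0.0277 (SE), adjusted p = 0.000403, edgeR), a call kept in each of the 18 alternative fits.

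Hsp90b1, the ER member of the HSP90 family, was measured at 879 CPM for NC 1, 853 for NC 2 and 835 for NC 3, beside 801 for siPUM2 1, 833 for siPUM2 2 and 819 for siPUM2 3. All siPUM2 values were below NC, by little, and the difference lay just outside the threshold (log2 fold change -0.07 ± 0.0255 (SE), adjusted p = 0.0561, edgeR). It passed in 10 of the 18 alternative fits, among them DESeq2 (adjusted p = 0.0195), limma voom (0.0295) and edgeR without NC 3 (0.0242) or without siPUM2 3 (0.0378). Sdf2l1, which works with the ER J-proteins to keep BiP clients soluble, fell by 7.71% from an NC mean of 90.03 ± 1.33 to 83.1 ± 5.01 CPM (SD, n = 3; adjusted p = 0.0148, edgeR). Its siPUM2 3 value of 88.7 CPM lay just under the lowest NC value of 89.2 CPM. The call was lost without NC 3 (adjusted p = 0.0771), siPUM2 1 (0.146) or siPUM2 2 (0.0976). Creld2, a secreted ER protein with thiol activity induced by ER stress, fell by 9.26% from an NC mean of 71.8 ± 4.32 to 65.1 ± 2.91 CPM (adjusted p = 0.0136, edgeR), although the lowest NC library (67.1 CPM) was below the highest siPUM2 library (68.1 CPM). That call was lost without NC 1 (0.131), NC 2 (0.0703) or siPUM2 1 (0.104).

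The 3 ER J-proteins among the 33 genes, which deliver clients to BiP and stimulate its ATPase, were not called; others outside the 33 were called higher and are given with the further lists. Dnajb11 had a log2 fold change of -0.05 (95% interval -0.10 to 0.01) and Dnajc3, which also inhibits PERK, one of -0.04 (-0.13 to 0.05). Dnajb9 (ERdj4), a well-known target of XBP1, was measured at 18.9, 17.0 and 18.3 CPM across NC 1, 2 and 3, against 18.0, 19.9 and 21.3 CPM across siPUM2 1, 2 and 3. Its highest values were in siPUM2 2 and 3, but siPUM2 1 lay within NC (log2 fold change 0.13 ± 0.0675 (SE), adjusted p = 0.17, edgeR). Manf, a secreted stress-induced factor that binds BiP, was measured at 168 CPM for NC 1, 163 for NC 2 and 162 for NC 3, beside 167 for siPUM2 1, 171 for siPUM2 2 and 183 for siPUM2 3. The groups overlapped, and the rise of 5.91% (log2 fold change 0.08 ± 0.0301 (SE), adjusted p = 0.0389, edgeR) rested on few libraries. Without siPUM2 3 its log2 fold change was 0.04 (adjusted p = 0.394), and without NC 2 (0.120), NC 3 (0.114) or siPUM2 2 (0.0545) it was not called either. With the replicate number as a block the adjusted p was 0.0541, and by DESeq2 it was 0.0993.

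Among the roles with more than 1 gene, disulfide isomerases and their oxidases held the largest share of calls (83.3%, against 28.4% of all genes). Of 6 genes 4 were lower (66.7%, against 13.3%), 1 higher (16.7%, against 15.1%) and 1 not called. The other disulfide and prolyl isomerases, given with the further lists, had 3 of 18 lower and 6 higher. Pdia4 (ERp72) was measured at 421, 413 and 399 CPM across NC 1, 2 and 3, against 331, 351 and 346 CPM across siPUM2 1, 2 and 3. Every siPUM2 library was well below every NC library, and the message fell by 16.6% (log2 fold change -0.26 ± 0.0275 (SE), adjusted p = 2.24e-08, edgeR), the lowest p of the 33 genes. Pdia6 (P5), which also acts on IRE1, was measured at 494 CPM for NC 1, 485 for NC 2 and 474 for NC 3, beside 417 for siPUM2 1, 431 for siPUM2 2 and 435 for siPUM2 3. It fell by 11.7% (log2 fold change -0.18 ± 0.0257 (SE), adjusted p = 3.97e-06, edgeR) with no overlap between groups. Pdia3 (ERp57), the isomerase that works with the lectin chaperones, was measured at 839.7, 825 and 815 CPM across NC 1, 2 and 3, against 737, 740.4 and 768 CPM across siPUM2 1, 2 and 3. It fell by 9.46% (log2 fold change -0.14 ± 0.0249 (SE), adjusted p = 5.78e-05, edgeR), again with no overlap. These 3 calls were kept in each of the 18 alternative fits.

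P4hb went the other way. It was measured at 1656 CPM for NC 1, 1653 for NC 2 and 1655 for NC 3, beside 1754 for siPUM2 1, 1723 for siPUM2 2 and 1719 for siPUM2 3. The NC libraries were almost equal, all siPUM2 libraries were higher, and the rise was 4.65% (log2 fold change 0.07 ± 0.0235 (SE), adjusted p = 0.0363, edgeR). It was not called without NC 1 (adjusted p = 0.107), NC 2 (0.127), NC 3 (0.0659), siPUM2 1 (0.143) or siPUM2 2 (0.0700), nor with upper-quartile scaling (0.0753). The ratios of the isomerases to P4hb, chosen after the values were seen and given as a description, need no scaling between libraries. The FPKM ratio of Pdia4 to P4hb was 0.268, 0.264 and 0.255 in NC 1, 2 and 3 and 0.199, 0.215 and 0.213 in siPUM2 1, 2 and 3. The siPUM2 mean was thus 0.797 of the NC mean, and the same quotient was 0.844 for Pdia6 and 0.865 for Pdia3. In all 3 ratios the siPUM2 libraries were below the NC libraries.

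The ER oxidases ERO1 pass electrons from the isomerases to oxygen. Ero1b was measured at 6.33, 6.16 and 5.28 CPM across NC 1, 2 and 3, against 4.34, 4.46 and 4.19 CPM across siPUM2 1, 2 and 3. Its siPUM2 libraries were close together and below all NC libraries, and at this low level it fell by 26.8% (log2 fold change -0.45 ± 0.123 (SE), adjusted p = 0.00618, edgeR), the largest fall of the 33 genes, in each of the 18 alternative fits too. Ero1a, the broadly expressed and hypoxia-induced form, was measured at 30.3 CPM for NC 1, 26.9 for NC 2 and 29.4 for NC 3, beside 26.9 for siPUM2 1, 25.1 for siPUM2 2 and 27.98 for siPUM2 3. The groups overlapped and it was not called (log2 fold change -0.11, 95% interval -0.24 to 0.01).

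The lectin chaperones calreticulin and calnexin, which bind the same trimmed sugar on folding glycoproteins from the lumen and from the membrane, separated. Calr was measured at 2027, 2003 and 1964 CPM across NC 1, 2 and 3, against 1797, 1846 and 1782 CPM across siPUM2 1, 2 and 3. All siPUM2 libraries were below all NC libraries, and it fell by 9.51% (log2 fold change -0.14 ± 0.0245 (SE), adjusted p = 4.33e-05, edgeR), a call kept in each of the 18 alternative fits. Canx was measured at 577 CPM for NC 1, 575 for NC 2 and 586 for NC 3, beside 589 for siPUM2 1, 599 for siPUM2 2 and 582 for siPUM2 3. Its groups overlapped, and the 95% interval of its log2 fold change of 0.03 was -0.02 to 0.08 (adjusted p = 0.452, edgeR). The FPKM ratio of Calr to Canx was 9.64, 9.55 and 9.19 in NC 1, 2 and 3 and 8.37, 8.44 and 8.39 in siPUM2 1, 2 and 3, so that the siPUM2 mean was 0.888 of the NC mean. Both genes held an ERSE in their promoter windows.

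**Figure D3:**
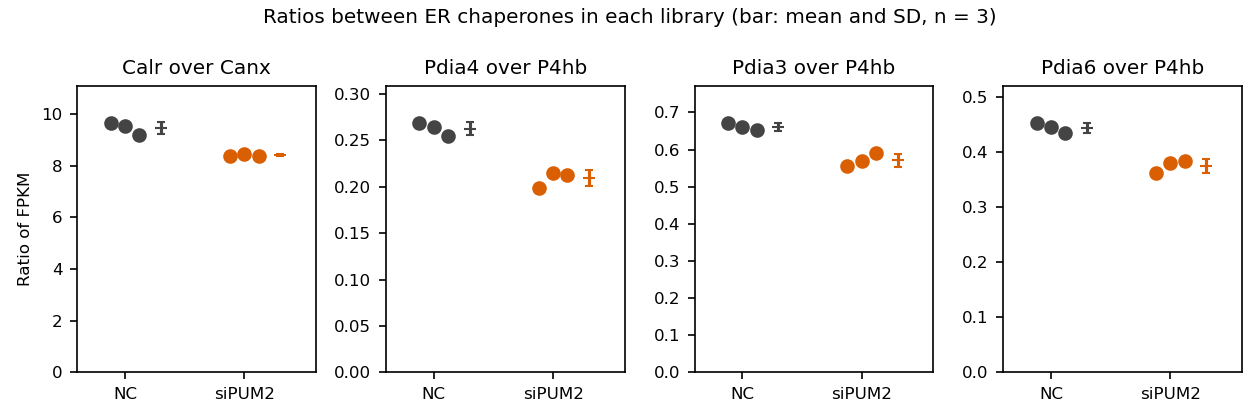
Ratios of deposited FPKM between ER chaperones in each library, with the mean and SD of 3 libraries beside the points; each axis starts at 0. In all 4 ratios (Calr to Canx, and Pdia4, Pdia3 and Pdia6 to P4hb) the siPUM2 libraries lie below the NC libraries, by most for Pdia4 to P4hb (0.262 to 0.209 on average).

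The degradation machinery did not move together. Of 8 ERAD genes 1 fell, 1 rose and 6 were not called (25.0% called, against 28.4% of all genes), and the median of their log2 fold changes was 0.01. Herpud1, a stress-induced membrane protein that organises the HRD1 ligase complex, was measured at 74.5, 75.2 and 79.9 CPM across NC 1, 2 and 3, against 62.3, 60.2 and 70.6 CPM across siPUM2 1, 2 and 3. All siPUM2 libraries were below NC, with siPUM2 3 the nearest, and it fell by 15.9% (log2 fold change -0.25 ± 0.0452 (SE), adjusted p = 9.36e-05, edgeR). Derl2, a rhomboid-like membrane protein of the same complex, was measured at 52.7 CPM for NC 1, 48.3 for NC 2 and 46.8 for NC 3, beside 58.5 for siPUM2 1, 58.5 for siPUM2 2 and 53.2 for siPUM2 3. It rose by 15.2% (log2 fold change 0.20 ± 0.0506 (SE), adjusted p = 0.0028, edgeR), with the lowest siPUM2 library (siPUM2 3) just above the highest NC library (NC 1). On the deposited FPKM, tested with limma, Derl2 was not called on log2(FPKM + 1) with or without a filter or on log2(FPKM + 0.1) (adjusted p = 0.0540 to 0.103), and Herpud1 was not called in 2 of these 3 fits (0.0585 and 0.0679). Its relative Derl1 had a log2 fold change of 0.01 (95% interval -0.05 to 0.06). The scarce Derl3 was measured at 1.79, 1.29 and 1.21 CPM across NC 1, 2 and 3, against 1.71, 2.05 and 1.85 CPM across siPUM2 1, 2 and 3, with overlap and a wide interval (-0.05 to 0.84 on the log2 scale).

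The ligase and its adaptor were not called. Syvn1 (HRD1) was measured at 49.7 CPM for NC 1, 46.1 for NC 2 and 49.4 for NC 3, beside 52.9 for siPUM2 1, 50.3 for siPUM2 2 and 50.3 for siPUM2 3. Its siPUM2 values were all above NC, but by less than the test could call (log2 fold change 0.08 ± 0.0479 (SE), adjusted p = 0.229, edgeR). Sel1l, the adaptor of HRD1, had a log2 fold change of -0.04 (-0.11 to 0.03). Edem1 (-0.04, -0.09 to 0.02) and Edem2 (0.01, -0.08 to 0.11), which trim mannose to mark glycoproteins for disposal, were not called either.

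The translocon subunits differed. Sec61a1, the channel itself, was measured at 530.2, 535 and 523 CPM across NC 1, 2 and 3, against 481, 481 and 474 CPM across siPUM2 1, 2 and 3. The spread within groups was small, and it fell by 9.59% (log2 fold change -0.15 ± 0.0242 (SE), adjusted p = 3.19e-05, edgeR), in each of the 18 alternative fits too. Sec61b, the small subunit beside the channel, was measured at 277 CPM for NC 1, 269.7 for NC 2 and 265 for NC 3, beside 256 for siPUM2 1, 266 for siPUM2 2 and 279 for siPUM2 3. Its groups overlapped, and the log2 fold change of -0.02 had a 95% interval of -0.08 to 0.04. Serp1, a small protein bound to the translocon under stress, had a log2 fold change of -0.05 (-0.12 to 0.02).

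Serpinh1 (HSP47), which binds the collagen triple helix and was the most abundant of the 33 per length, was measured at 2512, 2510 and 2540 CPM across NC 1, 2 and 3, against 2372, 2400 and 2436 CPM across siPUM2 1, 2 and 3. All siPUM2 libraries were below NC, and it fell by 4.68% (log2 fold change -0.07 ± 0.0238 (SE), adjusted p = 0.0286, edgeR). The call was lost without NC 1 (adjusted p = 0.0628), NC 2 (0.0712), NC 3 (0.0771), siPUM2 1 (0.122) or siPUM2 2 (0.0798).

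**Figure D4:**
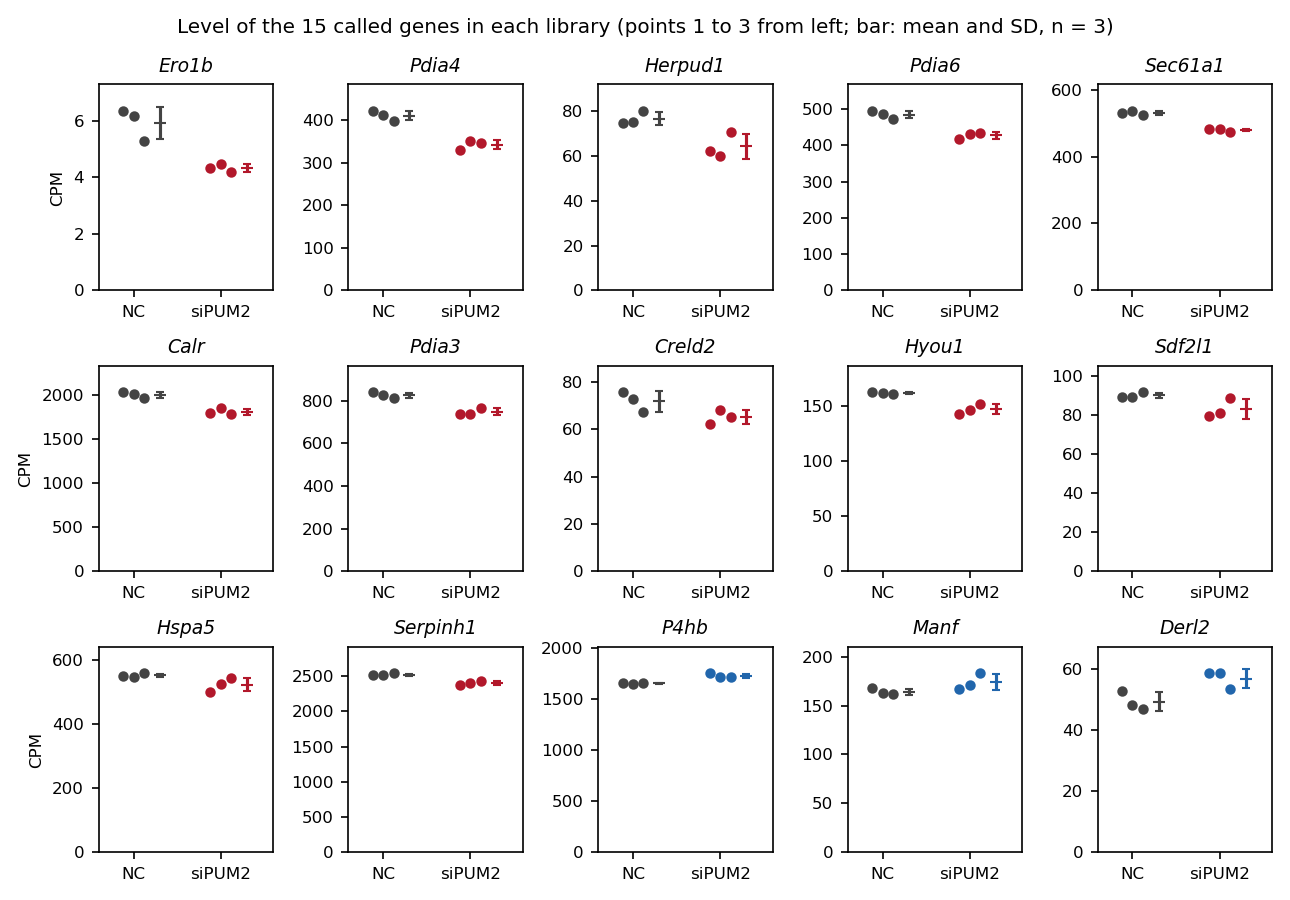
CPM of the 15 called genes in each library, in order of fold change, with the mean and SD of 3 libraries to the right of each group and axes that start at 0. The 12 genes called lower are red and the 3 called higher blue in siPUM2; the groups overlap in Creld2 and Manf and are apart in the other 13.

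The siPUM2 libraries were not equal. Over the 12 genes that fell, the median level as a percentage of the NC mean was 88.1% in siPUM2 1, 90.5% in siPUM2 2 and 91.4% in siPUM2 3. The highest of the 3 siPUM2 values was that of siPUM2 3 in 7 of the 12 genes, and the lowest was that of siPUM2 1 in 8. In 3 genes (Ero1b, Calr and Sec61a1) siPUM2 3 held the lowest value. The 12 genes were selected by their calls in these same libraries, and this order was not counted over all genes. Sdf2l1, Hspa5 and Serpinh1 came closest to NC in siPUM2 3, at 98.6%, 98.4% and 96.6% of the NC mean. In that library genes annotated as ribosomal RNA took 0.368% of the counts, against 0.287% to 0.313% in the other 5, and its part in these values was not tested. Without siPUM2 3, 13 of the 33 genes were called lower and 2 higher. Over all genes tested, that fit called 1740 lower and 1798 higher, against 1731 and 1961 with it.

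**Figure D5:**
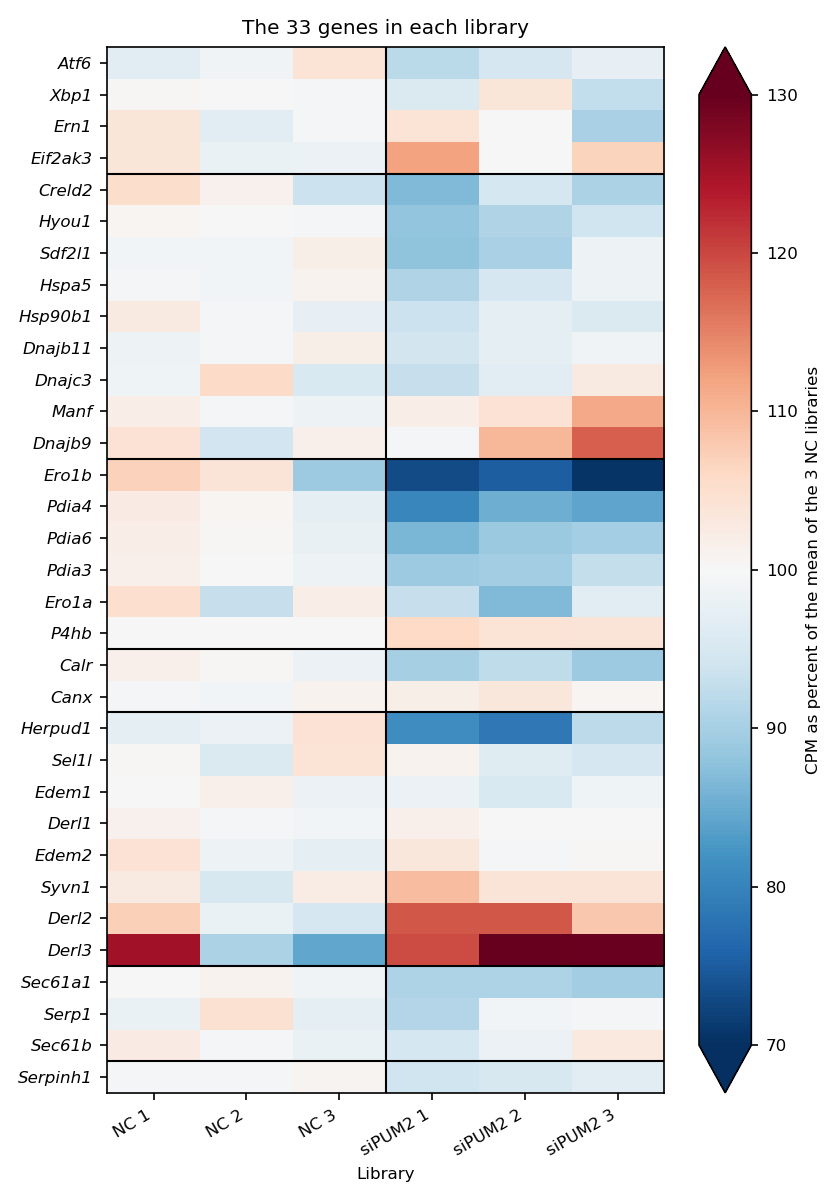
CPM of each of the 33 genes in each library as a percentage of the mean of the 3 NC libraries, grouped by role (horizontal lines) in the order of the plot of fold changes; the colour scale ends at 70% and 130%. The disulfide isomerases Pdia3, Pdia4 and Pdia6, Ero1b, Calr and Sec61a1 are below 100% in each siPUM2 library, and P4hb and Derl2 above it.

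Among the chosen ER genes, 12 held an ERSE or ERSE-II in their promoter windows. Of these 6 fell (Hspa5, Hyou1, Creld2, Ero1b, Calr and Herpud1), 0 rose and 6 were not called. Over all genes tested, 13.3% were called lower and 15.1% higher. Of the 13 chosen genes with a window and neither element, 3 fell (Sdf2l1, Pdia4 and Serpinh1), 2 rose (P4hb and Derl2) and 8 were not called. Of the 8 genes with no window, 3 fell (Pdia3, Pdia6 and Sec61a1), 1 rose (Manf) and 4 were not called. Whether those 8 hold an element is not known. These are counts without a test. The bearers among the chosen genes thus included Calr and Canx, of which 1 fell, and Xbp1 and Dnajc3, which were not called. Bearers outside the chosen genes were called in both directions. Birc5 (log2 fold change -0.35), Hnrnpa3 (-0.22), Ggct (-0.41) and Rcl1 (-0.17) fell, while Cdc27 (0.29) and Nucb1 (0.09) rose. The other tested bearers were not called.

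Further genes of the secretory pathway were read from 9 lists. They held 150 genes with counts, and 148 were tested. Of these 20 fell (13.5%), 32 rose (21.6%) and 96 were not called. Over all genes tested 13.3% were called lower and 15.1% higher, the background for each list below. Either way, 35.1% of the 148 were called, against 28.4% of all genes. The median log2 fold change of the 148 was 0.007. From each list the 2 called genes with the lowest p are named first.

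The oligosaccharyltransferase, which attaches sugar chains to entering proteins at the translocon, had 3 of 12 subunits lower (25%) and 2 higher (16.7%). Its ribophorins fell, Rpn1 from 440.1 ± 9.18 to 364 ± 7.09 CPM (SD, n = 3; log2 fold change -0.28, adjusted p = 2.63e-09, edgeR) and Rpn2 from 414 ± 13.4 to 364 ± 4.35 CPM (-0.19, adjusted p = 3.35e-06). Ddost also fell (-0.10), whereas the small subunit Ost4 (0.09) and Tusc3 (0.11) rose. Among 22 genes of signal recognition, translocon and signal peptidase, 2 fell (9.09%) and 3 rose (13.6%). The lowest p were those of the peptidase subunit Spcs1 (log2 fold change 0.16) and the translocation factor Sec62 (-0.13).

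Other disulfide and prolyl isomerases divided, with 3 of 18 lower (16.7%) and 6 higher (33.3%). Fkbp14, a prolyl isomerase that binds collagen, rose from 68.5 ± 3.97 to 91.0 ± 1.97 CPM (SD, n = 3; log2 fold change 0.41, adjusted p = 1.08e-09, edgeR). The membrane-bound thioredoxin-like isomerase Tmx4 rose from 32.0 ± 2.36 to 44.5 ± 1.33 CPM (0.47, adjusted p = 3.02e-07). Its relatives Tmx3 (0.21) and Tmx1 (0.11) rose as well, and Tmx2 was not called (-0.01). The luminal isomerases Pdia5 (-0.31) and Txndc5 (-0.13) and the peroxiredoxin Prdx4 (-0.10) fell. The luminal thioredoxin-like Txndc12 (0.17) and the collagen prolyl isomerase Fkbp10 (0.09) rose.

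In glycoprotein quality control 1 of 13 genes fell (7.69%) and 4 rose (30.8%). The folding sensor Uggt1 fell (log2 fold change -0.18, adjusted p = 2.82e-05, edgeR), while its paralogue Uggt2 rose (0.28, adjusted p = 0.000164). Of 26 further ERAD genes 2 fell (7.69%) and 4 rose (15.4%). Selenos, a selenoprotein that links the derlins to the segregase VCP, rose from 108 ± 3.37 to 136 ± 2.37 CPM (SD, n = 3; log2 fold change 0.34, adjusted p = 5.17e-10, edgeR), and the shuttle factor Rad23b fell (-0.13, adjusted p = 0.000544). Of 9 other BiP cofactors and ER J-proteins 4 rose (44.4%, against 15.1% of all genes) and 0 fell (against 13.3%). None of these 9 had an unadjusted p under 0.05 with a lower level, by edgeR, DESeq2 or limma voom. The share of all genes at that unadjusted threshold was not counted. Dnajb12 (0.20) and Sdf2 (0.19), the latter a paralogue of Sdf2l1, had the lowest p, and the J-proteins Dnajb14 (0.32) and Dnajc1 (0.14) rose too. Sdf2 rose and Sdf2l1 fell.

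ER-to-Golgi transport had 3 of 21 genes lower (14.3%) and 5 higher (23.8%). The cargo adaptor Tmed3 rose from 138 ± 6.28 to 168 ± 3.32 CPM (SD, n = 3; log2 fold change 0.29, adjusted p = 1.97e-08, edgeR), and Kdelr3, a receptor that returns chaperones to the ER, from 158 ± 4.58 to 183 ± 0.577 CPM (0.21, adjusted p = 9.16e-07). A list of 10 genes held ATF6 relatives and partners, NF-Y subunits (which bind CCAAT) and the proteases that release ATF6. Of these 2 fell (20%; Mbtps1 and the NF-Y subunit Nfyc, -0.16) and 4 rose (40%). Creb3, an ER-anchored relative of ATF6, rose from 133 ± 1.69 to 159.9 ± 2.18 CPM (0.27, adjusted p = 7.96e-09). Mbtps1, the site-1 protease that cuts ATF6, fell from 133 ± 3.83 to 114 ± 3.79 CPM (-0.22, adjusted p = 2.28e-06), whereas Mbtps2, the site-2 protease, rose from a low level (5.81 ± 0.654 to 7.83 ± 0.895 CPM; 0.43, adjusted p = 0.00461).

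The PERK arm and the integrated stress response had 4 of 18 genes lower (22.2%, against 13.3% of all genes) and 0 higher (against 15.1%). The share called either way, 22.2%, was below the 28.4% of all genes. At an unadjusted p under 0.05, 7 were lower and 1 higher by edgeR, 6 and 0 by DESeq2, and 8 and 0 by limma voom. No count of all genes at this unadjusted threshold was made, so these counts have no background. Chac1, a glutathione-degrading enzyme induced by ATF4, fell from 16.5 ± 0.919 to 11.98 ± 1.32 CPM (SD, n = 3; log2 fold change -0.46, adjusted p = 4.67e-05, edgeR) with no overlap. The pseudokinase Trib3 fell from 7.94 ± 2.33 to 3.92 ± 2.27 CPM (-1.02, adjusted p = 0.000678, edgeR), with overlap between the groups and no call by DESeq2 (adjusted p = 0.137). Atf3, a stress-induced transcription factor, was low and fell (log2 fold change -0.90, adjusted p = 0.000771, edgeR), and Eif2s1, the alpha subunit of eIF2 that PERK phosphorylates, fell by 0.11 on the log2 scale.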

How the data were processed

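Cells' total RNA was treated with DNase and mRNA was captured on beads for directional libraries, read in pairs, per the labels' protocols. HISAT2, DESeq2 and the build mRatBN7.2 appear in the submitters' processing notes. Which versions, annotation and counting program were used is not given in the sources used here. Deposited by the authors were whole-number counts per gene and, in a second table, FPKM values written to 2 decimals. The 33 genes and the further lists were chosen with earlier results of these data known. List entries were matched by symbol or older symbol with RefSeq names (GRCr8): of 153 entries, 149 by symbol, 2 by an older symbol and 2 without a match. Promoter windows also came from RefSeq (GRCr8).

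The count test was edgeR 4.0.16 (quasi-likelihood, R 4.3.3) with TMM scaling, filterByExpr and no term but the group. Filtering took out 6840 genes with 0.0465% of the counts. Benjamini-Hochberg adjustment covered all 12985 remaining genes, and calls were made at an adjusted p under 0.05. Levels are mean ± SD, and SEs come from the quasi-likelihood F. The procedure was tested on simulated data. Each of these was also tried: RLE, upper-quartile and library-size scaling, DESeq2 1.42.0, limma 3.58.1 (voom, and log2(FPKM + 1) or log2(FPKM + 0.1)), looser and stricter filters, the replicate number as a block, leaving out each library, a correction for gene length and an adjusted p under 0.01. Named genes were the 33, Pum2, and the 2 called genes with the lowest p in each further list. Other genes of those lists, and the ratios between chaperones, were picked after their values were seen. No library was a copy of another: chi-square per degree of freedom within groups was 2.08 to 3.82.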

Additional observations from a re-analysis of the deposited data

How the results depend on the processing

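Of the 12 genes called lower, 7 (Hyou1, Pdia3, Pdia4, Pdia6, Ero1b, Calr and Sec61a1) were called lower in all 18 alternative fits, and 17 of the 18 genes not called were called in none; the exception was Hsp90b1. No called gene of the 33 changed sign in any fit. The number of the 33 called lower was 7 on log2(FPKM + 0.1), 8 at an adjusted p under 0.01 and 8 to 13 when a library was left out. The number called higher was 1 with upper-quartile scaling, 1 at an adjusted p under 0.01, 1 to 2 when a library was left out, and 0 on log2(FPKM + 1), on log2(FPKM + 0.1) and on log2(FPKM + 1) without a filter by limma, where 1, 2 and 2 had an unadjusted p under 0.05. Over all genes 2069 were called on log2(FPKM + 0.1) and 2415 on log2(FPKM + 1) without a filter, instead of 3692. When a library was left out, 1395 to 1740 of all genes were called lower and 1603 to 1798 higher, instead of 1731 and 1961. In the further lists 13 fell and 20 rose on log2(FPKM + 1), with or without a filter, and 9 and 13 on log2(FPKM + 0.1), instead of 20 and 32. The cause of these differences was not tested. The median of the 33 stayed between -0.07 and -0.05.

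Same-numbered libraries showed little shared deviation over all genes tested (correlations 0.0238, 0.0258 and 0.00373 for numbers 1, 2 and 3). Unlike numbers gave -0.0471 to 0.0217. Such correlations cannot show a tie that touches few genes, so whether the numbers pair the samples is not known. With the replicate block 12 of the 33 were called lower and 2 higher (Manf lost its call), and 3731 genes in all. The precision of Ero1b and Derl3 was limited by counts under 200 per library.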
